A study of Homo sapiens with 3 samples.

Results

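The distal limb-like mesenchyme of these organoids was taken as the cells with at least 1 UMI (a counted transcript molecule) of LHX9, at least 1 UMI of HOXD13 and no UMI of LHX2. A cell also had to carry UMIs of fewer than 3 of the 6 cell cycle genes MKI67, TOP2A, CDK1, UBE2C, BIRC5 and CENPF. LHX9 (ENSG00000143355) lies at chr1:197911902-197935478 on the plus strand and HOXD13 (ENSG00000128714) at chr2:176092891-176095938 on the plus strand of GRCh38. Barcodes with under 1000 UMIs, under 500 genes or over 20% mitochondrial UMIs were left out. Of 23805 cells that passed the barcode limits, 342 met the rule: 18 of 8858 without induction, 14 of 5303 with 15 days of induction and 310 of 9644 with 45 days of induction. The cells were thus chosen by their measured UMIs of LHX9, HOXD13, LHX2 and the 6 cell cycle genes, whose levels are given as a description only. Levels are given as CPM, the UMIs of a gene per 1000000 UMIs, summed over the LHX9/HOXD13 cells of a library. In the uninduced, 15-day and 45-day libraries in turn, LHX9 stood at 266, 236 and 448 CPM and HOXD13 at 208, 146 and 247 CPM, and values given in threes below keep that order.

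The organoids were blood vessel organoids grown from the established H1 line of human embryonic stem cells. The line carries a PiggyBac-integrated, doxycycline-inducible cassette for NEUROD1, a neurogenic transcription factor, joined to GFP by a P2A peptide. All organoids were taken at day 45, and all received the neurotrophins BDNF and NT-3 from day 15, so the uninduced organoids carried the cassette and the neurotrophins too. The 3 groups were organoids without doxycycline, organoids with 1 µg/ml doxycycline for 15 days, whose place in the culture the labels leave out, and organoids with 1 µg/ml doxycycline for 45 days. Each group was 1 library of 5 to 6 pooled organoids, so differences between groups have no replicate check, and their intervals cover counting error only.

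In the limb bud, mesenchyme beneath a ridge of ectoderm grows outward and is patterned from the shoulder or hip to the digits. HOX genes of the A and D clusters come on in order along that axis, with HOXA13 and HOXD13 last and marking the future hand and foot, while MEIS factors mark the proximal limb. LHX9 and its close relative LHX2 are LIM-homeodomain transcription factors of the distal limb mesenchyme, known from mouse and chick to act in limb outgrowth, and LHX9 is also known from the early gonad and from parts of the brain.

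The uninduced, 15-day and 45-day libraries held 59879923, 49488425 and 64171327 UMIs, and the median kept cell held 5305.5, 7368 and 5697 UMIs. The LHX9/HOXD13 cells together held 120268, 156999 and 2299017 UMIs, so that 3 UMIs, taken here as the detection floor, stood for 24.9, 19.1 and 1.30 CPM. NEUROD1 itself, over all kept cells, stood at 1.33, 1.41 and 42.7 CPM, so the library labelled 15 days stood close to the uninduced one for the induced gene. Libraries shared 13 to 33 barcodes per pair, and 3 of the LHX9/HOXD13 cells had a barcode also found in another library, none as an LHX9/HOXD13 cell there.

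The LHX9/HOXD13 cells made up a larger share of the organoids at 45 days of induction than in either other library. Their share of kept cells was 0.203% without induction (95% Clopper-Pearson interval 0.120 to 0.321), 0.264% at 15 days (0.144 to 0.443) and 3.21% at 45 days (2.87 to 3.59). The share at 45 days was 15.8 times that without induction (9.84 to 27.0) and 12.2 times that at 15 days (7.15 to 22.5). The 15-day share was 1.30 times that without induction, with an interval of 0.598 to 2.76 that includes no difference. With every cell thinned to 2000 UMIs, which leaves out shallower cells, the shares were 0.0587%, 0.259% and 1.50%, from 5, 13 and 137 cells. The whole rule was judged on the thinned counts. Cells kept out at full depth by LHX2 or cell cycle genes could therefore enter, and these are not simply the same cells at equal depth. The 45-day share was then 25.5 times that without induction (10.7 to 79.9) and 5.79 times that at 15 days (3.27 to 11.1). The 15-day share was then 4.41 times that without induction, with an interval of 1.48 to 15.8 that leaves out no difference. Among cells with a UMI of PRRX1, a homeobox gene of limb and other mesenchyme, the shares were 0.349%, 0.631% and 5.81%. No replicate organoid pool stands behind any of these differences.

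**Figure D1:**
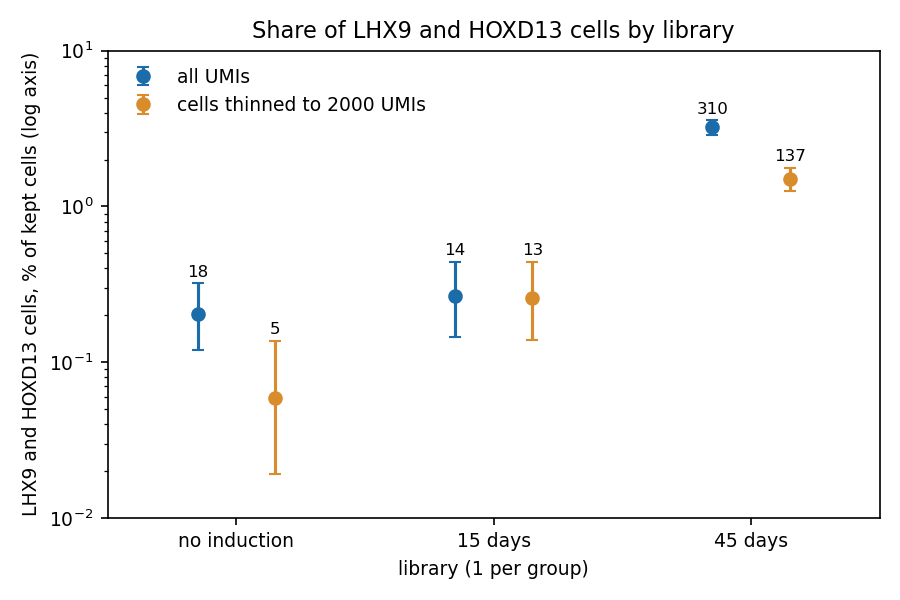
Share of kept cells that met the LHX9/HOXD13 rule in each library, in percent on a log axis, from all UMIs (blue) and after thinning each cell to 2000 UMIs (orange). The orange points apply the whole rule, with its LHX2 and cell cycle limits, to the thinned counts. Points are shares, bars are 95% Clopper-Pearson intervals for counting error, and the number over each point is its count of cells. The 45-day library stands highest on both scales, at 3.21% and 1.50%.

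Most cells with both genes at 15 days lay outside the rule because of LHX2. Kept cells with UMIs of both LHX9 and HOXD13 numbered 64, 113 and 695 in all. Those kept out by LHX2 alone numbered 19, 68 and 188, those kept out by 3 or more cell cycle genes alone 13, 4 and 103, and those kept out by both 14, 27 and 94. With LHX2 not used, the shares were 0.418%, 1.55% and 5.16%. The share at 45 days was then 3.34 times that at 15 days (2.64 to 4.27). That at 15 days was 3.70 times that without induction (2.48 to 5.62). The order of the libraries thus held while the distance of the 15-day library from the others moved. Just outside the rule, 10, 15 and 81 cells had exactly 1 LHX2 UMI, and 4, 0 and 16 had UMIs of exactly 3 cell cycle genes. Just inside it, 6, 4 and 47 cells had exactly 1 UMI each of LHX9 and HOXD13, against 3, 4 and 108 cells with at least 2 of each. The rule needs detected molecules and so takes deeper cells: the LHX9/HOXD13 cells had a median of 5886.5, 9442 and 6778.5 UMIs.

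Free RNA can place a few molecules of a gene in cells that do not express it, so the shares of cells with LHX9 were set beside endothelial cells, here cells with UMIs of both PECAM1 and CDH5. LHX9 was found in 0.644% of 466 endothelial cells without induction, 1.18% of 340 at 15 days and 7.80% of 218 at 45 days, at median depths of 7877, 9161 and 7609.5 UMIs, against 3.32%, 4.64% and 19.0% of all kept cells. HOXD13 was found in 1.50%, 1.18% and 3.67% of endothelial cells, against 6.01%, 5.26% and 12.0% of all kept cells. The endothelial share of LHX9 was therefore higher at 45 days too, and its part in the share of LHX9/HOXD13 cells was not tested. As a description of the 2 genes of the rule, LHX9 was found in 12.0%, 40.5% and 60.0% of cells with a HOXD13 UMI, against 2.76%, 2.65% and 13.4% of cells without one. The cells with HOXD13 were deeper, at medians of 5773.5, 8731 and 7068.5 UMIs against 5272, 7294.5 and 5546, and after thinning to 2000 UMIs the shares were 5.51%, 19.4% and 33.7% against 1.40%, 1.14% and 7.55%.

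The markers that the rule did not use went with the label. HOXA13 (ENSG00000106031; chr7:27193503-27200106, minus strand, GRCh38), a HOX gene of the future hand and foot, was found in 14 of 18 uninduced, 10 of 14 15-day and 253 of 310 45-day LHX9/HOXD13 cells, against 19.9%, 20.0% and 28.5% of kept cells. PRRX1 (ENSG00000116132; chr1:170662728-170739419, plus strand) was found in 15, 11 and 269 of them, or 83.3%, 78.6% and 86.8%, against 48.5%, 32.8% and 48.0% of kept cells. TWIST1, a transcription factor of early limb and other mesenchyme, stood at 732, 261 and 761 CPM. Regulators that tell hindlimb from forelimb were uneven: PITX1, a hindlimb factor, stood at 183, 70.1 and 262 CPM, its partner TBX4 at 24.9, 25.5 and 20.0 CPM, and the forelimb factor TBX5 had UMIs in 0, 0 and 3 cells. LMX1B, which marks dorsal limb mesenchyme, and EMX2, of the proximal limb girdle and of other organs, had no UMI in any of the 342 cells. The gonad and mesothelium genes WT1, NR5A1, UPK3B and MSLN were also at 0 in all 342 cells, while the other 3 genes of that list had few UMIs. GATA4 had 0, 1 and 4 UMIs, LHX1 0, 2 and 9 and PAX2 0, 0 and 1, and the 7 genes summed to 0, 19.1 and 6.09 CPM, against 1.43, 2.35 and 1.54 CPM in cells with HOXD13 and no LHX9.

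A few of the 342 cells carried markers of other cell types. Pairs of endothelial markers were present in 0, 0 and 3 cells, of macrophage markers in 0, 0 and 1, of epithelial markers in 1, 0 and 2, and of the neuronal genes NEFL and STMN2 in 0, 1 and 8. A single 45-day cell held 237 of the 271 UMIs of NEFL, a neurofilament gene, found in the LHX9/HOXD13 cells of that library, 298 of their 459 UMIs of NEFM and 32 of their 43 UMIs of NEUROD1. NEUROD1 had UMIs in 4 of the 310 cells at 45 days and in none of the other 32 cells. A single uninduced cell held all 26 UMIs of the keratin KRT19 in its group, so that KRT19 read 216 CPM there.

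The LHX9/HOXD13 cells were first set against cells of the same libraries that share HOXD13, those with a HOXD13 UMI, no LHX9 UMI and otherwise the same rule (353, 101 and 317 cells, at median depths of 5090, 7864 and 5666 UMIs). These are called HOXD13-only cells, and some of them may hold LHX9 that was not captured. Some also carried markers of other cell types, since neither kind of cell was chosen on PRRX1. Pairs of endothelial markers were present in 5, 3 and 3 of them and of macrophage markers in 5, 1 and 5. Epithelial pairs were present in 1, 4 and 5 and NEFL with STMN2 in 2, 14 and 15. UMIs were summed per library and kind of cell, and edgeR's quasi-likelihood test with library as a term was run over 9805 genes with Benjamini-Hochberg adjustment; the genes of the rule were taken out. At an adjusted p under 0.05, 52 genes (0.53%) were higher and 189 (1.93%) were lower in the LHX9/HOXD13 cells, and 46 of the 52 and 169 of the 189 had the same direction in all 3 libraries. With DESeq2 the counts were 14 higher and 32 lower, and without the 45-day library, which holds 310 of the 342 cells, edgeR called 34 higher and 67 lower.

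Among HOX genes, the LHX9/HOXD13 cells had more HOXA13 and less HOXA11 and HOXD11. Of 6 posterior HOX-region genes tested, 1 was higher and 2 were lower, with a median log2 fold change of 0.56 against -0.02 over all genes. HOXA13 stood at 191, 178 and 297 CPM, against 100, 126 and 143 CPM in HOXD13-only cells, a log2 fold change of 0.84 (edgeR adjusted p = 0.00502) that was higher in all 3 libraries (0.80 ± 0.28, SD, n = 3 libraries, with 5 CPM added). It lost the call without the 45-day library, at 0.67. HOXA11, which in mouse marks the forearm and lower leg, stood at 8.31, 31.8 and 23.5 CPM against 29.6, 69.4 and 48.1 CPM in HOXD13-only cells (log2 fold change -1.11, edgeR adjusted p = 0.0343), and HOXD11 was lower as well at -1.14 (edgeR adjusted p = 0.0340). Both lost the call without the uninduced library (-1.06 and -1.15) and without the 45-day library (-1.31 and -1.38).

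Proximal limb regulators and TBX3 were lower. Of 7 proximal genes tested, MEIS1 and MEIS2, homeobox genes of the proximal limb, were lower and none was higher. MEIS2 stood at 91.5, 70.1 and 36.5 CPM against 264, 282 and 171 CPM in HOXD13-only cells, a log2 fold change of -2.06 (edgeR adjusted p = 2.35e-09; -1.83 ± 0.31, SD, n = 3 libraries). MEIS1 had no UMI without induction and 6.37 and 13.0 CPM at 15 and 45 days (-1.53, edgeR adjusted p = 0.0193). SHOX2, which in mouse builds the proximal limb skeleton, had no UMI without induction, where the floor is 24.9 CPM, and 19.1 and 10.9 CPM at 15 and 45 days, against 59.7, 67.0 and 51.2 CPM in HOXD13-only cells (-2.31, edgeR adjusted p = 1.32e-05). TBX3, a T-box factor of the limb margins, stood at 16.6, 89.2 and 32.2 CPM against 297, 333 and 260 CPM in HOXD13-only cells, at -2.85 (edgeR adjusted p = 1.27e-11). ISL1, an early hindlimb and heart field factor, was lower at -2.70 (edgeR adjusted p = 5.79e-07). MEIS2, SHOX2, TBX3 and ISL1 kept an adjusted p under 0.05 without each library in turn. PITX1, TBX4, TWIST1, PRRX1 and PRRX2 did not pass the test.

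Within the list of 26 limb mesenchyme transcription factors, 21 passed the low-count filter, 3 were higher and 5 lower, with a median of -0.39. The 3 higher ones were MSX1, MSX2 and TFAP2B. MSX1, a homeobox gene that BMP signalling switches on in distal mesenchyme, stood at 291, 299 and 359 CPM against 161, 181 and 255 CPM in HOXD13-only cells (log2 fold change 0.62, edgeR adjusted p = 0.0325), a call that was lost without any one of the libraries (0.56 to 0.75). MSX2 was higher at 1.25 (edgeR adjusted p = 0.000523). TFAP2B (ENSG00000008196; chr6:50818723-50847613, plus strand), an AP-2 transcription factor, stood at 49.9, 280 and 25.2 CPM against 9.07, 5.88 and 5.63 CPM in HOXD13-only cells, a log2 fold change of 3.36 (edgeR adjusted p = 1.94e-07; 2.73 ± 1.73, SD, n = 3 libraries). It was held by a minority of cells, 3 of 18, 8 of 14 and 25 of 310. Its relative TFAP2A was among the lower genes at -1.79 (edgeR adjusted p = 0.00525; -3.00 and not called without the 45-day library), with SHOX2, TBX3, ZFHX4 and ALX4.

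Genes of the cartilage programme were higher. SOX9, SOX6 and COL2A1 passed the test among 6 tested genes of that list, none was lower, and the median was 1.29. SOX9, the transcription factor that starts cartilage formation, stood at 116, 76.4 and 126 CPM against 8.59, 41.1 and 46.1 CPM in HOXD13-only cells, a log2 fold change of 1.68 (edgeR adjusted p = 9.72e-05; 1.78 ± 1.23, SD, n = 3 libraries). Its partner SOX6 stood at 83.1, 31.8 and 39.6 CPM against 4.30, 3.53 and 9.22 CPM in HOXD13-only cells (2.80, edgeR adjusted p = 1.68e-05), with all 15-day UMIs in 1 cell. COL2A1, the main collagen of cartilage, stood at 116, 0 and 41.3 CPM against 8.59, 18.8 and 10.8 CPM in HOXD13-only cells (1.98, edgeR adjusted p = 0.00432), in 2, 0 and 63 cells. It was higher in 2 of 3 libraries and lost the call without the uninduced one (1.26).

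**Figure D2:**
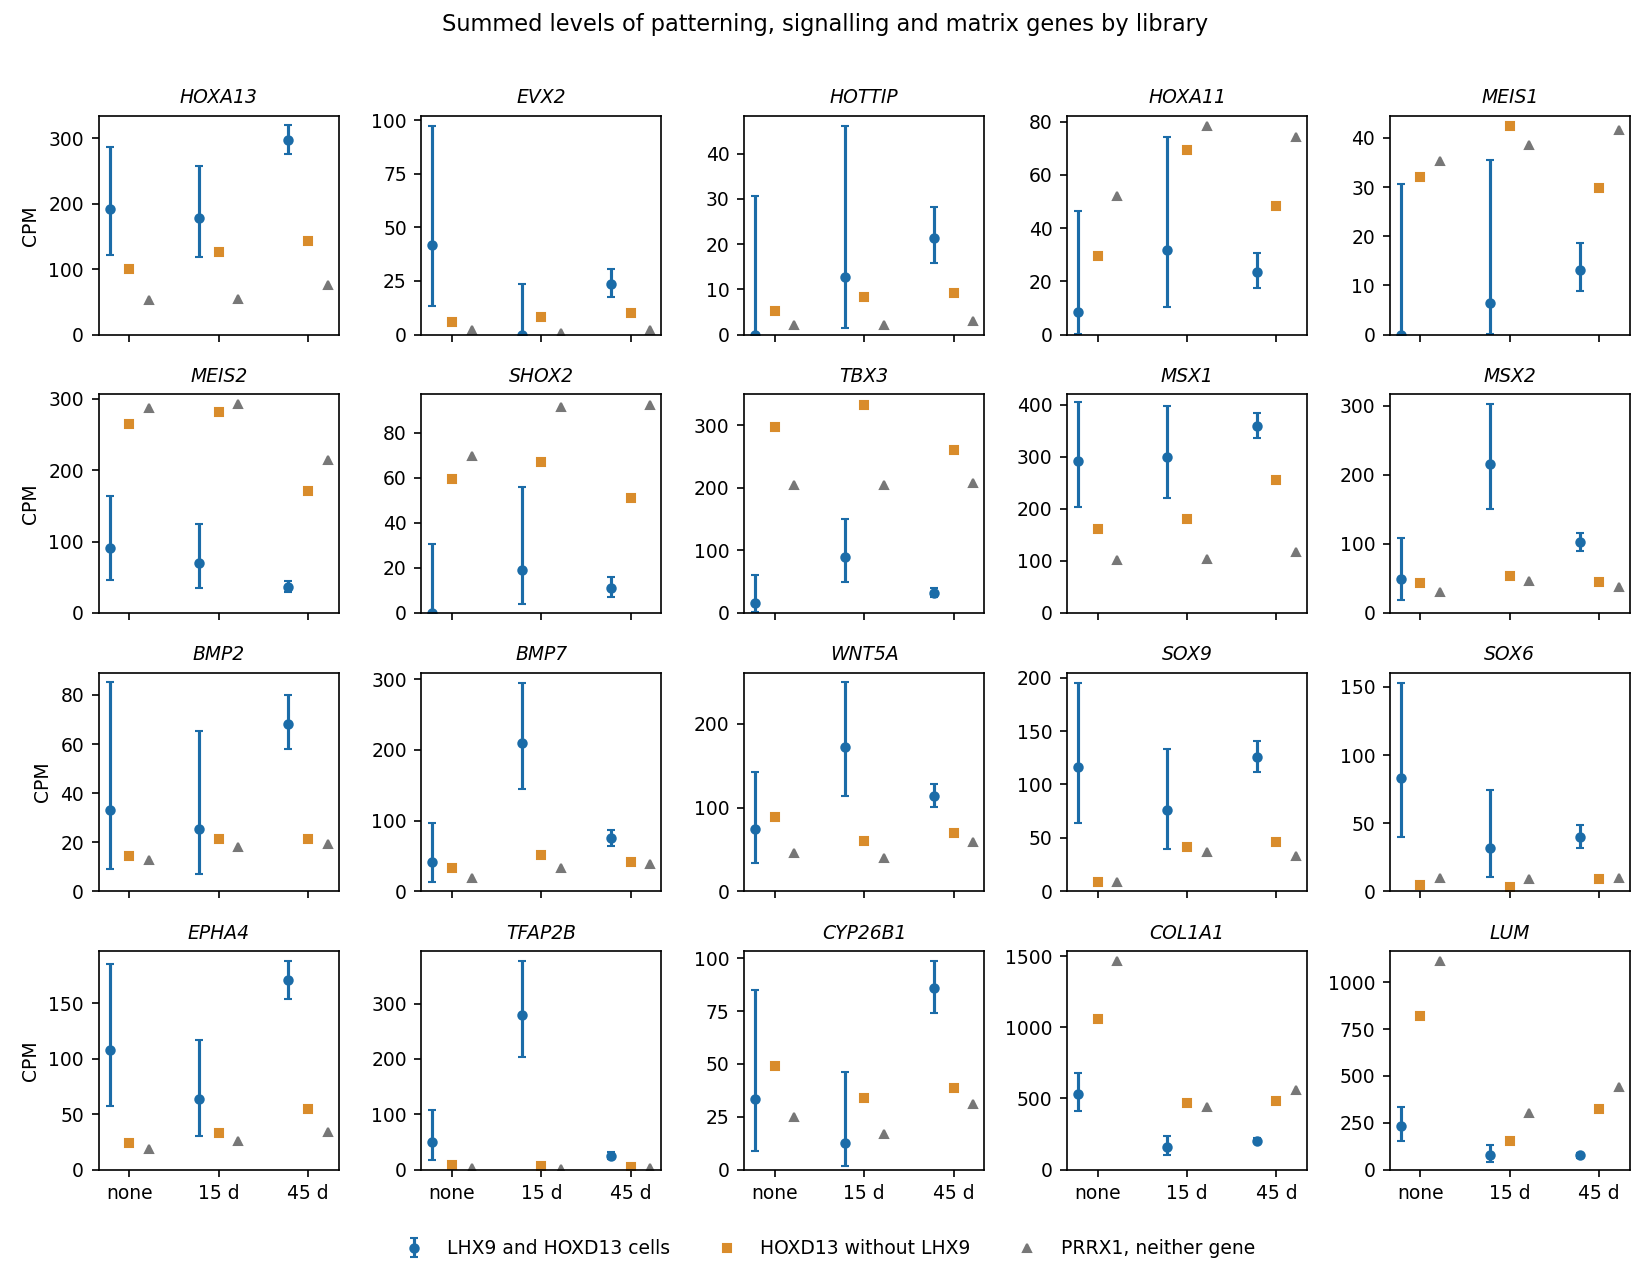
Levels of 20 genes in CPM in LHX9/HOXD13 cells (circles, bars are 95% Poisson intervals for counting error), in HOXD13 cells without LHX9 (squares) and in PRRX1 cells with neither gene (triangles), each in the uninduced, 15-day and 45-day library. HOXA13 lies above both other kinds of cell in all 3 libraries, whereas MEIS2, SHOX2, TBX3 and COL1A1 lie below them.

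Among signalling genes, the BMP ligand genes BMP2 and BMP7 were higher, and SFRP1, FRZB and SFRP2 were lower. BMP2 stood at 33.3, 25.5 and 68.3 CPM against 14.3, 21.2 and 21.5 CPM in HOXD13-only cells (log2 fold change 1.34, edgeR adjusted p = 0.0111), and lost the call without the 45-day library (0.68). BMP7 stood at 41.6, 210 and 74.8 CPM against 32.5, 51.7 and 41.0 CPM in HOXD13-only cells (1.14, edgeR adjusted p = 0.00432), and lost it without the 15-day library (0.75). These were the 2 called of 9 BMP pathway genes tested. SFRP1, a secreted WNT antagonist, stood at 83.1, 31.8 and 39.1 CPM against 339, 248 and 118 CPM in HOXD13-only cells (-1.95, edgeR adjusted p = 2.92e-08). The WNT antagonists FRZB and SFRP2 were lower at -1.96 (edgeR adjusted p = 0.000119) and -1.23 (edgeR adjusted p = 0.00512). The 3 were the only calls among 14 WNT genes tested, where the WNT antagonist gene DKK1 did not pass (0.48, edgeR adjusted p = 0.34), and none of 10 FGF genes or 5 hedgehog genes passed. FGF8, the ligand of the limb ridge ectoderm, had no UMI in any LHX9/HOXD13 cell. EPHA4, an ephrin receptor of distal limb mesenchyme, stood at 108, 63.7 and 171 CPM against 23.9, 32.9 and 54.8 CPM in HOXD13-only cells (1.60, edgeR adjusted p = 8.88e-06; 1.46 ± 0.56, SD, n = 3 libraries). The retinoid-binding protein gene CRABP1 was lower at -0.75 (edgeR adjusted p = 0.0214), a call lost without the uninduced library (-0.75) and without the 45-day one (-0.80).

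Genes of the fibroblast matrix were lower as a group: 13 of 24 tested passed the test, all lower, with a median of -0.83. COL1A1, a chain of type I collagen, stood at 532, 159 and 204 CPM against 1061, 469 and 481 CPM in HOXD13-only cells (log2 fold change -1.28, edgeR adjusted p = 6.54e-08; -1.25 ± 0.27, SD, n = 3 libraries). COL3A1, type III collagen, stood at 1264, 1707 and 716 CPM against 2868, 3174 and 2105 CPM in HOXD13-only cells (-1.27, edgeR adjusted p = 2.02e-11). The proteoglycan gene LUM stood at 233, 76.4 and 75.7 CPM against 820, 152 and 321 CPM in HOXD13-only cells (-1.86, edgeR adjusted p = 2.34e-09). The provisional matrix gene VCAN, at 565, 732 and 384 CPM, and FBLN1, at 258, 268 and 391 CPM, did not pass. Genes of mural cells moved the same way, with 4 of 7 lower and a median of -1.68, and so did keratins and other epithelial genes, with 4 of 7 lower, macrophage genes, with 3 of 6 lower, and EMCN among 8 endothelial genes. The summed mural genes stood at 149.7, 172 and 106.6 CPM in the LHX9/HOXD13 cells, against 317, 361 and 247 CPM in HOXD13-only cells, and the part of such RNA in the lower calls was not tested. None of 9 stress genes passed.

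By the fixed rule of size, the other genes most raised in the LHX9/HOXD13 cells included 2 transcriptional regulators. DACH1, a transcriptional cofactor expressed in distal limb mesenchyme, stood at 125, 102 and 135 CPM against 20.0, 31.7 and 37.4 CPM in HOXD13-only cells (log2 fold change 1.95, edgeR adjusted p = 2.19e-07). MECOM, a zinc finger transcription factor, stood at 116, 89.2 and 187 CPM against 25.8, 36.4 and 55.8 CPM in HOXD13-only cells (1.71, edgeR adjusted p = 9.79e-07). PRAC1, a small nuclear protein gene near HOXB13, stood at 208, 439 and 126 CPM against 38.7, 89.3 and 81.9 CPM in HOXD13-only cells (1.53, edgeR adjusted p = 1.27e-05). ALKAL2, a ligand of the ALK receptor, was higher at 2.54 (edgeR adjusted p = 0.000464), but 37 of its 61 UMIs at 15 days came from 1 cell and the call was lost without that library (0.62). Of 8 neuronal genes tested, NEFL, DCX and RTN1 were higher and STMN2 lower. NEFL passed at 1.27 (edgeR adjusted p = 0.00958) and stood at -0.85 without the single cell that held most of its UMIs. The lowest genes included the integrin gene ITGA8 (-3.32), the monooxygenase-like gene MOXD1 (-3.12), the sulfotransferase gene SULT1E1 (-2.96), the growth factor gene IGF1 (-2.26) and the smooth muscle gene TAGLN (-2.24). The immunoglobulin superfamily gene IGDCC3 (-2.22) and the antisense RNA gene PGM5-AS1, with 1 UMI in all 342 cells, completed the lowest by that rule with SHOX2, TBX3 and ISL1, and each of these was lower in all 3 libraries. NSG1 (1.57) and C3orf58 (1.43) completed the highest, and NSG1 lost the call without the uninduced library (1.14).

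The same test against the wider mesenchyme, cells with a PRRX1 UMI and neither LHX9 nor HOXD13 (3101, 1090 and 2280 cells), called 151 of 13013 genes (1.16%) higher and 516 (3.97%) lower; PRRX1 was taken out with the genes of the rule. The LHX9/HOXD13 cells are the same in both tests, so the 2 sets of calls are not independent. With DESeq2 the counts were 43 and 101, and without the 45-day library they were 37 and 140, whereas without the 15-day library 231 genes were higher.

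HOXA13 stood further above the wider mesenchyme, at a log2 fold change of 1.80 (edgeR adjusted p = 5.84e-16) from 52.4, 54.7 and 75.2 CPM in other PRRX1 cells. HOXA13, EVX2 and HOTTIP were the 3 higher of 8 posterior HOX-region genes tested, and HOXA11 and HOXC10 the 2 lower (median 0.30). HOXC10 was lower at -3.53 (edgeR adjusted p = 0.0409). That call was lost without the 15-day library (-3.50) and without the 45-day one (-0.44). EVX2 (chr2:176077472-176083913, minus strand), a homeobox gene next to HOXD13, stood at 41.6, 0 and 23.5 CPM against 1.93, 0.874 and 1.999 CPM in other PRRX1 cells (3.57, edgeR adjusted p = 1.47e-11). HOTTIP, a long non-coding RNA at the end of the HOXA cluster beyond HOXA13, stood at 0, 12.7 and 21.3 CPM against 2.09, 2.08 and 3.00 CPM in other PRRX1 cells (2.62, edgeR adjusted p = 2.22e-06). Each was higher in 2 of 3 libraries. HOXA11-AS, a transcript that overlaps HOXA11 on the other strand, was higher at 2.05 (edgeR adjusted p = 2.86e-12), while HOXA11 was lower at -1.68 (edgeR adjusted p = 4.15e-07; -1.78 and not called without the 45-day library). The sources used here do not give the strand setting of the counting, so reads of these overlapping genes may not have been told apart. HOXA11-AS lost its call without the 45-day library (0.95).

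Limb regulators followed a similar division. Of 22 tested limb factors, MSX1 (1.48), MSX2 (1.55), TFAP2B (5.10), PRRX2 (0.74) and SALL1 (1.71) were higher and 6 were lower, with a median of -0.36 against -0.06 over all genes. PRRX2 and SALL1 lost the call without the 45-day library (0.27 and 1.93). The WNT ligand gene WNT5A, which drives distal outgrowth, stood at 74.8, 172 and 114 CPM against 46.1, 39.8 and 58.5 CPM in other PRRX1 cells (1.18, edgeR adjusted p = 9.78e-06). CYP26B1, which breaks down retinoic acid in the distal limb, stood at 33.3, 12.7 and 85.7 CPM against 24.8, 17.0 and 31.3 CPM in other PRRX1 cells. It passed at 1.05 (edgeR adjusted p = 0.00665) but stood at -0.07 without the 45-day library. SOX9 (1.98), SOX6 (2.15), SOX5 (2.15) and COL2A1 (2.79) were higher among 9 cartilage genes, with SOX5 losing the call without the 45-day library (2.24) and COL2A1 higher in 2 of 3 libraries; the median of the 9 was -0.19, below 0. CYTL1, a secreted protein gene of cartilage, was higher at 2.15 (edgeR adjusted p = 4.71e-17), as was PSAT1, of serine synthesis, at 2.30 (edgeR adjusted p = 3.61e-20).

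The lower genes again held the matrix and the mural markers: 19 of 26 matrix genes and 7 of 10 mural genes were lower and none higher, with medians of -1.11 and -2.45. COL1A1 had a log2 ratio of -1.44 ± 0.01 (SD, n = 3 libraries, with 5 CPM added; edgeR adjusted p = 1.3e-16). In addition, 12 of 21 genes of hypoxia and glycolysis were lower and none was higher, among them the glucose transporter gene SLC2A1 (-1.44), VEGFA (-1.08), PGK1 (-0.64) and LDHA (-0.55). All 4 of these were lower in only 2 of 3 libraries, since at 15 days the LHX9/HOXD13 cells stood above the other PRRX1 cells, as with PGK1 at 682 CPM against 552 CPM in other PRRX1 cells. All 4 lost the call without the 45-day library (SLC2A1 -0.55, VEGFA -0.41, PGK1 -0.46 and LDHA -0.31), and PGK1 (-0.39) and LDHA (-0.35) also without the uninduced one. Among 12 cell cycle genes that the rule did not use, MCM2, MCM3 and MCM5, which load the replication helicase, were higher. Without the 45-day library all 3 lost the call, with MCM2 at 1.05, MCM5 at 0.44 and MCM3 at -0.59. Liver genes (4 of 5 lower), neuronal genes (6 of 13 lower) and keratins and other epithelial genes (6 of 10 lower) were lower too, though not in every library. Summed liver genes stood at 41.6, 108 and 6.96 CPM against 113, 811 and 4.28 CPM in other PRRX1 cells. Epithelial genes summed to 499, 121 and 111 CPM against 493, 657 and 385 CPM in other PRRX1 cells. The liver gene AFP (-2.06), NEFL (-0.52) and NEFM (-0.62) lost the call without the 15-day library.

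**Figure D3:**
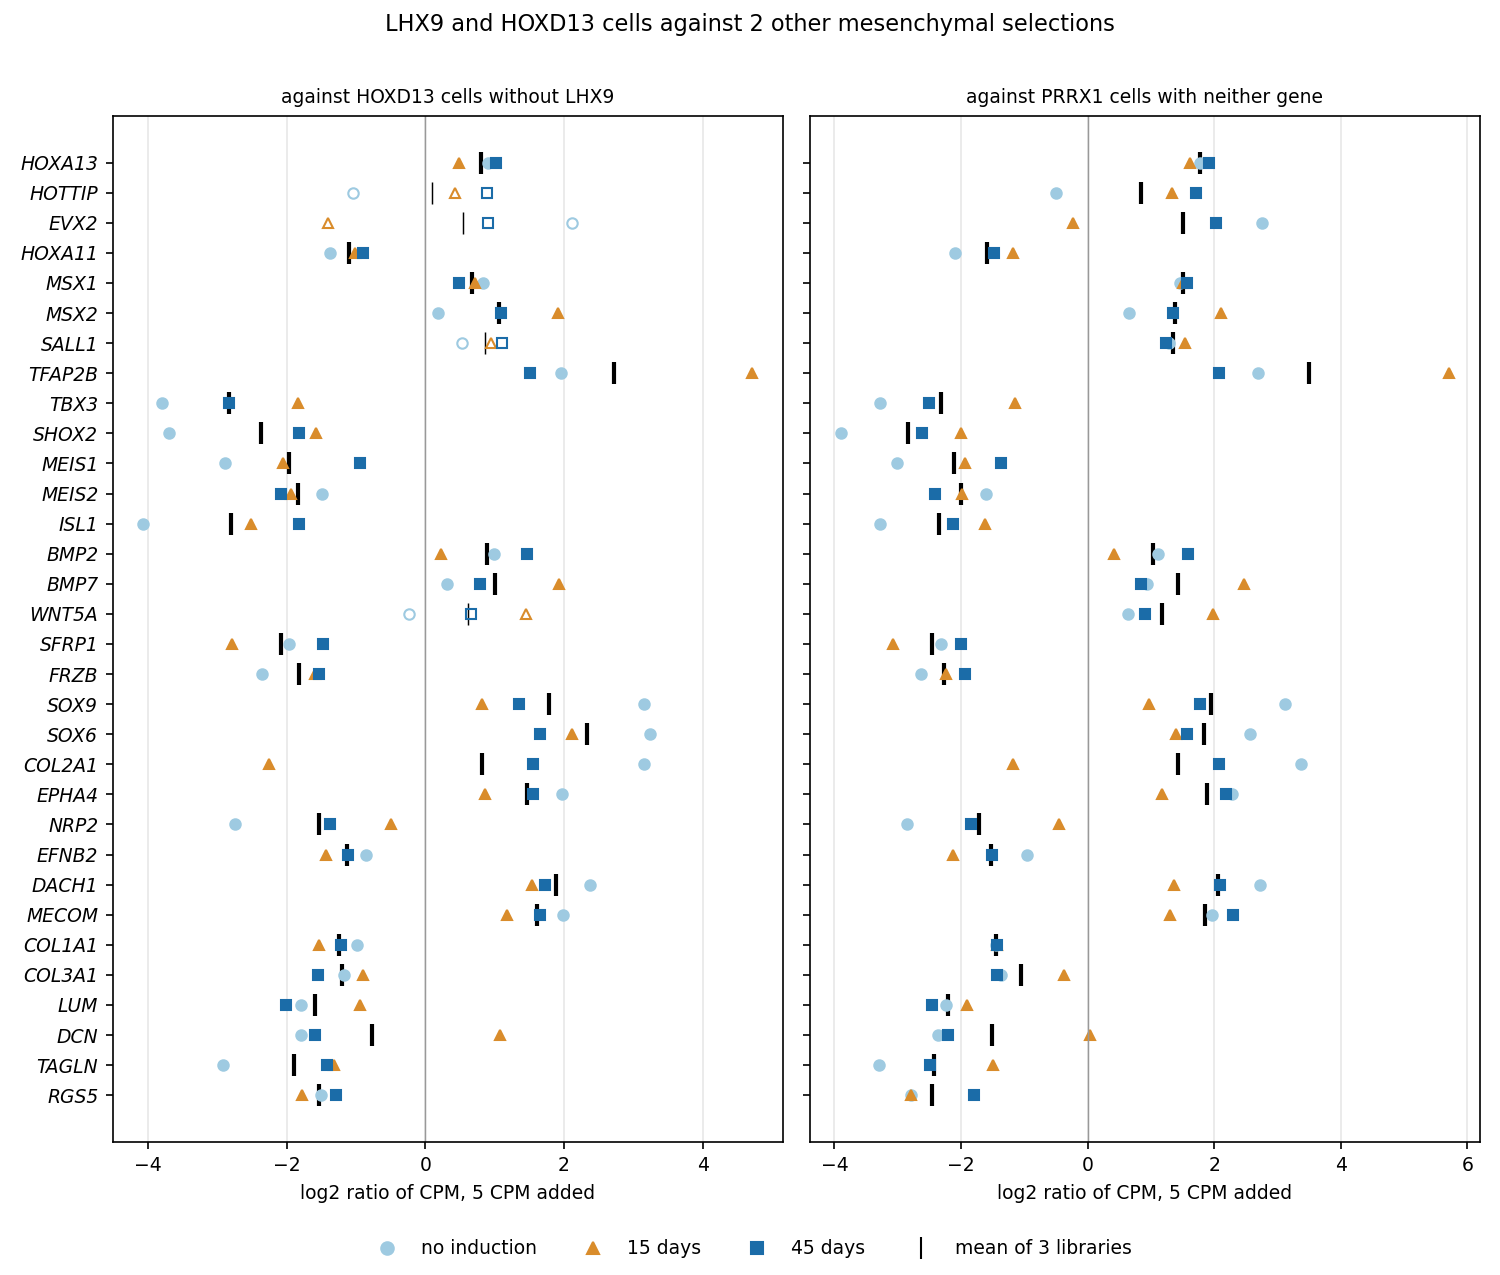
Log2 ratio of 32 genes in LHX9/HOXD13 cells over HOXD13 cells without LHX9 and over PRRX1 cells with neither gene, with 5 CPM added to each side, 1 point per library. Filled points mark genes with an edgeR adjusted p under 0.05 and hollow points genes without it, and the black bar is the mean of the 3 libraries; DACH1, MECOM and EPHA4 lie above 0 in all 3 libraries in both comparisons, and MEIS2, TBX3 and COL1A1 below.

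The nearest cells outside the rule, those with LHX9, HOXD13 and LHX2 (19, 68 and 188 cells), differed in few genes. These are called LHX2 cells. In this comparison, added after the data had been seen, edgeR's quasi-likelihood test called 14 of 5473 genes (0.256%) higher and 30 (0.548%) lower in the LHX9/HOXD13 cells without LHX2. The calls rested on all 3 libraries: without the 15-day library edgeR called 0 genes, though 413 had an unadjusted p under 0.05, without the uninduced library it called 0 higher and 2 lower, and without the 45-day library 2 higher and 4 lower. DESeq2 called 1 higher and 5 lower. Lower genes included DIO3, an enzyme that inactivates thyroid hormone, at 8.31, 19.1 and 33.9 CPM against 358, 59.9 and 170 CPM in LHX2 cells (-2.46, edgeR adjusted p = 1.08e-05). They also included the growth factor binding protein gene IGFBP3 (-1.68, edgeR adjusted p = 0.000408), the WNT antagonist gene DKK1 (-1.31, edgeR adjusted p = 0.00117), MSX2 (-0.88, edgeR adjusted p = 0.0352) and DLX5, a homeobox gene of the limb ridge and skeleton (-1.42, edgeR adjusted p = 0.0257). Higher genes included MEOX2, a homeobox gene known from muscle and connective tissue (1.41, edgeR adjusted p = 0.0187). LUM was higher as well (1.05, edgeR adjusted p = 0.0276). The summed matrix genes stood at 5987, 6242 and 4134 CPM against 5585, 5691 and 4532 CPM in LHX2 cells. Mural genes summed to 150, 172 and 107 CPM against 130, 251 and 147 CPM in LHX2 cells. Proximal genes summed to 565, 503 and 631 CPM against 528, 525 and 592 CPM in LHX2 cells. The low matrix, mural and proximal levels against HOXD13-only cells were thus shared by LHX2 cells. HOXA13, at 191, 178 and 297 CPM against 325, 290 and 306 CPM in LHX2 cells, and SOX9, at 116, 76.4 and 126 CPM against 65.0, 70.3 and 107 CPM in LHX2 cells, did not pass the test.

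Between the induction groups, levels in the LHX9/HOXD13 cells are given as ratios of 2 libraries, with genes counted as different when they were at least 2-fold apart with 5 CPM added and reached 50 CPM in at least 1 of the 2. At 45 days against no induction, 190 of 2939 such genes (6.46%) were higher and 117 (3.98%) lower. Leaving out, for each gene, the cell with most of its UMIs in each library gave 422 and 34. Keeping only cells with at least 2 UMIs of both LHX9 and HOXD13 gave 800 and 1697, from 108 cells at 45 days and 3 without induction. None of these ratios has a test, since each group was 1 library.

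Among the genes highest at 45 days against no induction were MAB21L2 and the HOX gene HOXA9. MAB21L2, a gene known for its part in eye development, stood at 190 CPM at 45 days, against 24.9 CPM without induction, a ratio of 7.60 (95% conditional binomial interval 2.58 to 37.0), and at 93.7 CPM at 45 days against 43.0 CPM without induction in HOXD13-only cells. HOXA9 stood at 86.1 CPM at 45 days, against 8.31 CPM, or 1 UMI, without induction (10.4, 1.84 to 411), and at 45.1 CPM at 45 days against 21.5 CPM without induction in HOXD13-only cells. EIF2AK1, a kinase of the stress response, stood at 68.7 CPM at 45 days and had no UMI without induction, at least 2.76-fold higher against the floor of 3 UMIs. In HOXD13-only cells EIF2AK1 hardly differed, at 54.8 CPM at 45 days against 51.1 CPM without induction. NEFL was also among them, at 118 CPM at 45 days and no UMI without induction, with 237 of its 271 UMIs in a single cell.

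The lower genes at 45 days against no induction included early response and matrix genes. FOS, an immediate early gene, stood at 122 CPM at 45 days, against 815 CPM without induction, a ratio of 0.149 (0.118 to 0.190), and JUN at 131 CPM at 45 days against 432 CPM without induction (0.303). FOS also stood lower in HOXD13-only cells, at 219 CPM at 45 days against 403 CPM without induction, and the summed list of 9 stress genes stood at 435 CPM at 45 days against 1621 CPM without induction in the LHX9/HOXD13 cells. These genes can respond to dissociation, and its part in the difference was not tested. COL1A1 stood at 204 CPM at 45 days, against 532 CPM without induction (0.383, 0.294 to 0.505). FN1, the fibronectin gene, stood at 88.3 CPM at 45 days against 291 CPM without induction (0.303) and PTN, a secreted growth factor gene, at 128 CPM at 45 days against 449 CPM without induction (0.286). In HOXD13-only cells PTN differed little, at 286 CPM at 45 days against 314 CPM without induction. Of 19 matrix genes at the floor, 6 were at least 2-fold lower and none higher, with a median of -0.61 against 0.03 over all genes. COL1A1 was lower in HOXD13-only cells too, at 481 CPM at 45 days against 1061 CPM without induction. Of 9 limb factors at the floor, 1 was higher and none lower (median 0.58), and 3 of 5 cartilage genes were lower (median -1.27). The uninduced levels of such genes rested on few cells. All 14 UMIs of COL2A1 lay in 2 uninduced cells, 10 of them in 1. COL9A3 had 11 UMIs in the 4 uninduced cells without HOXA13 and 4 in the 14 with it. The PTN ratio turned to a log2 value of 0.07 without the top cell.

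At 15 days against no induction, 635 of 3409 genes (18.6%) were higher and 244 (7.16%) lower, from 14 and 18 cells, and the median over all genes was 0.22. ITM2A, a membrane protein gene of cartilage and muscle precursors, stood at 1541 CPM at 15 days, against 49.9 CPM without induction (30.9, 14.0 to 85.0), and at 350 CPM at 15 days against 101 CPM without induction in HOXD13-only cells. IGFBP3 stood at 637 CPM at 15 days against 16.6 CPM, or 2 UMIs, without induction (38.3, 10.3 to 321). The FGF feedback genes SPRY1 and SPRY4, which damp receptor signalling, stood at 459 CPM at 15 days against 66.5 CPM without induction (6.89, 3.32 to 16.6) and 217 CPM at 15 days against 24.9 CPM without induction (8.68). Of 7 FGF genes at the floor 5 were higher and 1 lower (median 1.76), and of 7 BMP genes 4 were higher and 1 lower (1.01). Of 8 retinoid genes 5 were higher and none lower (1.59), and of 11 hypoxia and glycolysis genes 8 were higher and none lower (1.68). The glycolytic gene PGK1, at 682 CPM at 15 days against 116 CPM without induction (5.85, 3.34 to 11.1), also stood higher in HOXD13-only cells, at 513 CPM at 15 days against 261 CPM without induction. COL1A1 was lower, at 159 CPM at 15 days against 532 CPM without induction (0.299), as was PTN, at 102 CPM at 15 days against 449 CPM without induction. In HOXD13-only cells PTN went the other way, at 446 CPM at 15 days against 314 CPM without induction. Of 21 matrix genes at the floor 4 were higher and 4 lower (median 0.37), so COL1A1 did not stand for that list. The cartilage list had 4 of 5 genes lower and none higher (-2.09), against an uninduced level that for COL2A1 came from 2 cells.

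**Figure D4:**
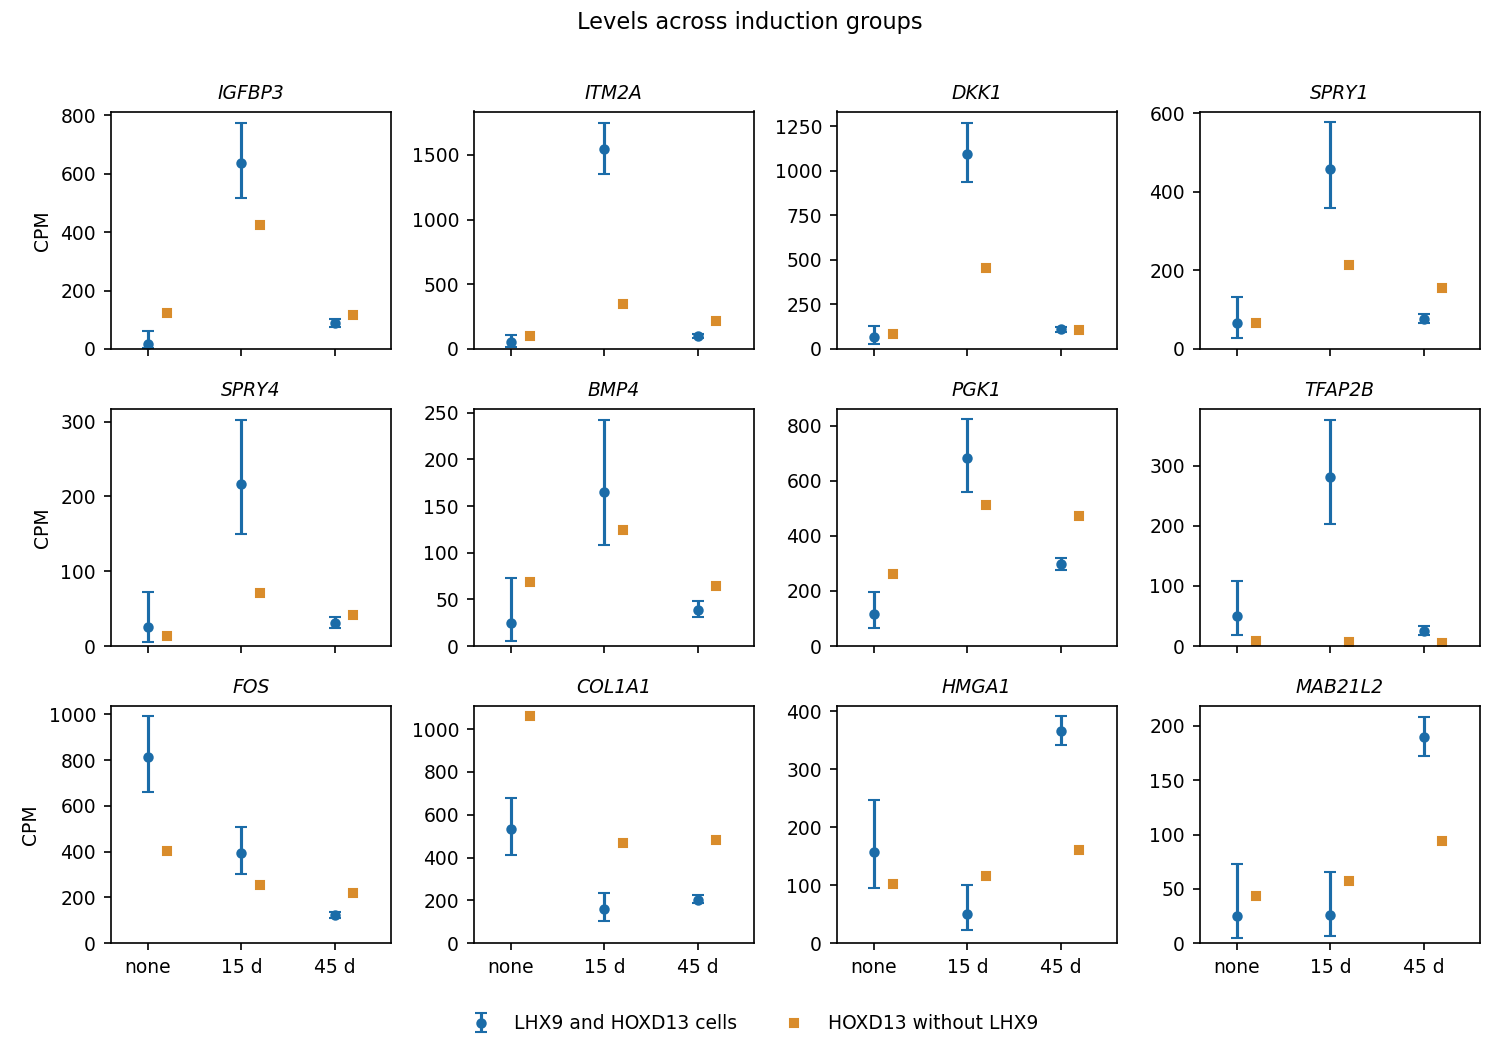
Levels of 12 genes in CPM across the 3 induction groups, in LHX9/HOXD13 cells (circles with 95% Poisson intervals for counting error) and in HOXD13 cells without LHX9 (squares). ITM2A, IGFBP3, DKK1, SPRY1 and SPRY4 are highest at 15 days in both kinds of cell, and FOS is highest without induction in both.

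At 45 days against 15 days, 127 of 3385 genes (3.75%) were higher and 333 (9.84%) lower, with a median over all genes of -0.17; without the top cell of each gene the counts were 258 and 134. The 3 pairs share libraries, so a library that is high in one pair enters another. ITM2A stood at 100 CPM at 45 days, against 1541 CPM at 15 days, a ratio of 0.0652 (0.0542 to 0.0784). Also lower were IGFBP3, at 88.3 CPM at 45 days against 637 CPM at 15 days (0.139), SPRY1, at 75.7 CPM at 45 days against 459 CPM at 15 days (0.165), and the matrix protease inhibitor gene TIMP3, at 73.9 CPM at 45 days against 497 CPM at 15 days (0.149). DKK1 stood at 66.5, 1096 and 110 CPM in the 3 groups in order, and at 82.1, 457 and 107 CPM in HOXD13-only cells. Higher genes at 45 days included HMGA1, a chromatin protein gene of proliferating cells, at 366 CPM at 45 days against 51.0 CPM at 15 days (7.18, 3.63 to 16.7). MYCN, a growth regulator known from mouse limb mesenchyme, stood at 84.8 CPM at 45 days against 6.37 CPM, or 1 UMI, at 15 days (13.3, 2.36 to 529). PRDM16, a transcriptional regulator, stood at 55.7 CPM at 45 days and had no UMI at 15 days, at least 2.91-fold higher. Of 11 hypoxia and glycolysis genes 7 were lower and none higher (median -1.11), of 10 retinoid genes 2 were higher and 6 lower (-1.38), and of 12 limb factors 3 were higher and 3 lower (-0.34).

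Across the 3 groups in order, HOXA13 stood at 191, 178 and 297 CPM and MSX1 at 291, 299 and 359 CPM, whereas TFAP2B stood at 49.9, 280 and 25.2 CPM and MSX2 at 49.9, 217 and 102 CPM. BMP7, at 41.6, 210 and 74.8 CPM, and BMP4, at 24.9, 166 and 39.1 CPM, had their highest level at 15 days as well. The 15-day values come from 14 cells, of which TFAP2B had UMIs in 8, BMP7 in 7 and BMP4 in 9.

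The 310 cells at 45 days were numerous enough to describe how they vary among themselves. TWIST1 was found in 292 of them, PRRX1 in 269, HOXA10 in 266, HOXA13 in 253, MSX1 in 240, PRRX2 in 230 and PITX1 in 217. SOX9 was found in 147, EPHA4 in 176 and COL2A1 in 63, whereas TBX3 was found in 50, TBX4 in 43, HOXA11 in 36, MEIS2 in 33, MEIS1 in 20 and SHOX2 in 15. After thinning to 2000 UMIs, HOXA13 was found in 43.3% of LHX9/HOXD13 cells at 45 days, against 23.4% of HOXD13 cells without LHX9 and 13.8% of PRRX1 cells with neither gene, and EPHA4 in 30.3%, against 7.89% and 5.98%. MEIS2 was found in 3.91%, against 24.7% and 28.0%, and TBX3 in 4.89%, against 34.2% and 29.3%, so the differences in level were also differences in the share of cells at equal depth.

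**Figure D5:**
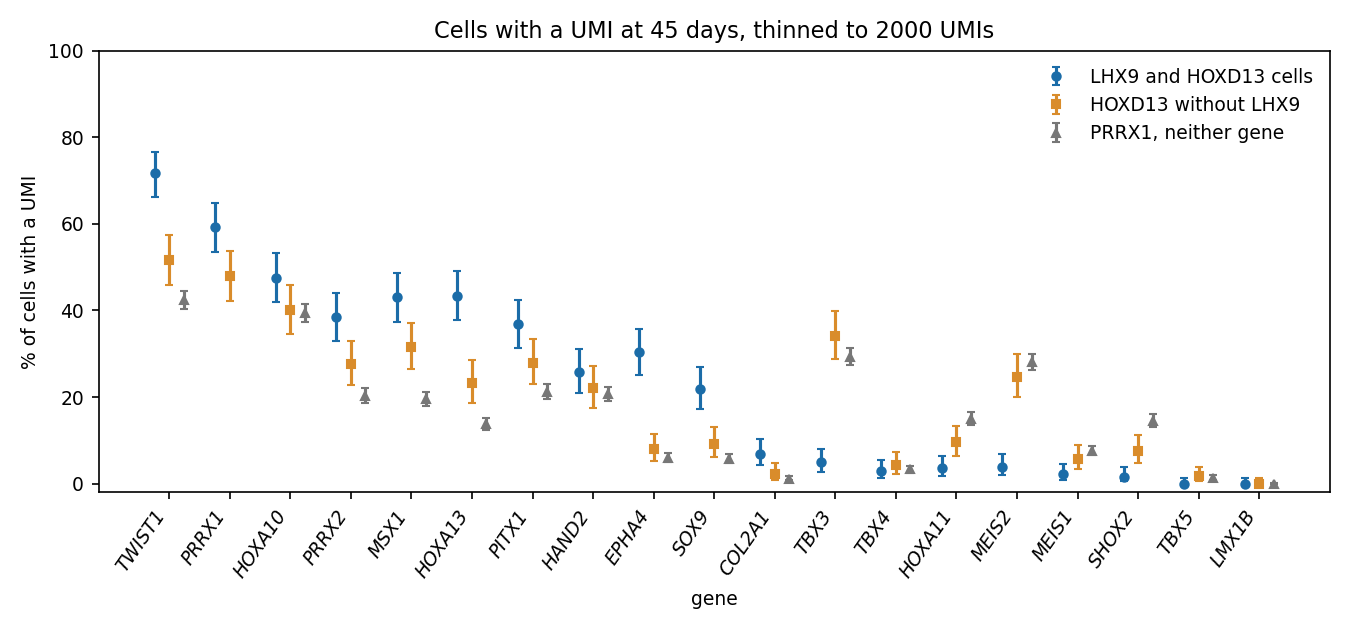
Percent of cells at 45 days of induction with at least 1 UMI of each of 19 genes after thinning every cell to 2000 UMIs, in LHX9/HOXD13 cells, in HOXD13 cells without LHX9 and in PRRX1 cells with neither gene. TWIST1 leads the LHX9/HOXD13 cells at 71.7%, and TBX3, at 4.89%, and MEIS2, at 3.91%, are rare in them but common in the other kinds of cell.

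Cartilage and matrix genes divided the 45-day cells. The 147 cells with a SOX9 UMI and the 163 without one had median depths of 6825 and 6567 UMIs. COL2A1 stood at 58.4 CPM in cells with SOX9 (95% Poisson interval 45.0 to 74.5), against 25.8 CPM in cells without it (17.5 to 36.6), and SOX6 at 60.2 CPM with SOX9 against 20.8 CPM without it. LUM went the other way, at 36.5 CPM in cells with SOX9 against 111 CPM without it, and so did COL3A1, at 568 CPM with SOX9 against 851 CPM without it. HOXA13 stood at 293 CPM with SOX9 and 301 CPM without it. SOX9 and COL2A1 were found together in 42 cells and SOX9 and SOX6 in 48. These are cells of 1 library, and the split is a description with no test. The 33 cells with a MEIS2 UMI, at a median depth of 10643 UMIs against 6460 in the 277 without, had more COL3A1, at 1324 CPM with MEIS2 against 603 CPM without it, and less PITX1, at 161 CPM against 280 CPM without it. HOXA13 was held by 31 of the 36 cells with HOXA11, a share near that among all the cells, 253 of 310. Reads of HOXA11 may not have been told apart from those of HOXA11-AS.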

How the data were processed

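Single-cell transcripts were measured with Chromium Single Cell 3′ v3 chemistry (10x Genomics) in 3 libraries, each of 5 to 6 day 45 organoids dissociated with 20 U/ml papain for 30 minutes and passed through a 40 µm filter, per the labels' protocols. The authors deposited raw UMI counts per gene and barcode for 33538 genes, made with Cell Ranger 3.0.0 against GRCh38 per the submitters' processing notes; the gene annotation and the strand setting are not given in the sources used here. The count matrices held 10232, 5962 and 10765 barcodes without induction and with 15 and 45 days of induction. The members and the gene lists were chosen with earlier results of these data known. Coordinates came from GENCODE 29 on GRCh38, which held 33484 of the 33538 gene identifiers.

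From the deposited counts, cells were kept at 1000 UMIs, 500 genes and 20% mitochondrial UMIs or better, and UMIs were summed per library and kind of cell. All kinds of cell had UMIs of fewer than 3 of the 6 cell cycle genes and, except the LHX2 kind, no LHX2 UMI. Kinds were compared with edgeR 4.0.16 (R 4.3.3, quasi-likelihood test, TMM, filterByExpr, library as a term, Benjamini-Hochberg threshold 0.05). The p-values set the difference between kinds against its variation over 3 libraries that also differ in induction. Libraries were compared as ratios of CPM with 5 CPM added, a floor of 50 CPM and a 2-fold limit, with no test; Poisson, Clopper-Pearson and conditional binomial intervals are at 95% and cover counting error only. On simulated counts with 200 changed genes, edgeR recovered 29.5% of 2-fold and 89.5% of 4-fold changes with 2 false calls for the HOXD13 comparison, over 9470 genes fitted. The simulation gave all genes the same biological spread and all 3 libraries the same profile. It therefore cannot give the rate of false calls in these data, where libraries differ in induction. Thinning used seed 1 and 2000 UMIs per cell. Scrublet, as run in scanpy 1.11.5, marked 0.0113%, 0.0566% and 5.16% of barcodes by its own threshold, so doublets were kept, and an alternative left out the barcodes of highest score at 0.8% per 1000 barcodes. Genes named are the markers, the genes of 25 lists, and by rule the 10 highest and 10 lowest of each comparison (for edgeR, an adjusted p under 0.05, 50 CPM in the higher kind and the same direction in 3 libraries; for libraries, UMIs in at least 10 cells of the higher one). Alternatives were DESeq2 1.42.0, other scalings, floors, depths and cell rules, and each library left out. The text gives a selection of the genes so named, and a result for 1 of them is not reported here.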

Additional observations from a re-analysis of the deposited data

Results flagged for a closer look

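Several genes stood on opposite sides of the HOXD13 cells without LHX9 in different libraries, with counting intervals that lay above 1 in one library and below 1 in another; the difference between libraries was not tested. Values are the ratio of CPM in LHX9/HOXD13 cells over HOXD13 cells without LHX9, with its 95% conditional binomial interval. RARB, a retinoic acid receptor gene, stood at 2.93 at 15 days (1.37 to 6.00) and 0.372 at 45 days (0.211 to 0.633), and ALDH1A3, which makes retinoic acid, at 2.89 (1.06 to 7.26) and 0.0962 (0.0338 to 0.223). SPRY1 stood at 2.14 at 15 days (1.61 to 2.83) and 0.489 at 45 days (0.404 to 0.592). ELN, the elastin gene, stood at 4.52 without induction (1.66 to 10.6), 2.80 at 15 days (1.43 to 5.27) and 0.448 at 45 days (0.294 to 0.673), and DCN, the decorin gene, at 0.276 (0.132 to 0.511), 2.21 (1.25 to 3.79) and 0.303 (0.234 to 0.390).

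The keratins KRT5, KRT15 and KRT19 differed in the same way. KRT5 stood at 34.8 without induction (4.99 to 385) and 0.215 at 45 days (0.131 to 0.339), KRT15 at 15.7 (5.64 to 42.9) and 0.243 (0.0582 to 0.773), and KRT19 at 3.21 without induction (2.03 to 4.91), 0.0154 at 15 days (0.000389 to 0.0863) and 0.319 at 45 days (0.244 to 0.414). All UMIs of the 3 keratins in the uninduced LHX9/HOXD13 cells came from a single cell.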

How the results depend on the processing

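The share of LHX9/HOXD13 cells was highest at 45 days under every setting run. It was 0.0587% without induction and 1.50% at 45 days after thinning. With at least 2 UMIs of both genes it was 0.0339%, 0.0754% and 1.12% without induction, at 15 days and at 45 days; with LHX2 not used, 0.418%, 1.55% and 5.16%; among PRRX1 cells, 0.349%, 0.631% and 5.81%. With cell cycle genes not used it was 0.350% without induction, 0.339% at 15 days and 4.28% at 45 days. The 15-day share was then 0.970 times that without induction (0.511 to 1.79). At 45 days against no induction, higher and lower genes numbered 797 and 451 with a floor of 20 CPM, 2374 and 1014 with none, 800 and 1697 with at least 2 UMIs of both genes, and 422 and 34 without the top cell of each gene. At 15 days against no induction they numbered 1394 and 889, 3470 and 2166, and 1285 and 2036 under the first 3 of these. At 45 against 15 days they numbered 518 and 657, 1689 and 1237, 457 and 765, and 258 and 134. A lower floor admits more genes by construction. With at least 2 UMIs of both genes, 3 uninduced, 4 15-day and 108 45-day cells remained, with 18361, 50247 and 863665 UMIs. Very few UMIs of a gene then reach the floor of 50 CPM in the 2 smaller groups. Leaving out the top cell takes a larger part of 18 or 14 cells than of 310. How much of the other shifts this made was not tested. PTN turned to a log2 ratio of 0.067 at 45 days against no induction without its top cell. HNRNPAB turned to 0.51 at 15 days against no induction with at least 2 UMIs of both genes, and the WNT list's median turned to -0.11 with no floor and -2.19 with at least 2 UMIs. The BMP list's median at 45 against 15 days turned to 0.18 with no floor.

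Against HOXD13 cells without LHX9, higher and lower calls numbered 14 and 32 with DESeq2, 10 and 32 with no library term, 28 and 105 with cells of at least 5000 UMIs, 26 and 78 after thinning, and 34 to 72 and 67 to 256 with each library left out. Against PRRX1 cells they numbered 43 and 101 with DESeq2, 62 and 150 with no library term, 47 and 172 after thinning, and 37 to 231 and 140 to 597 with each library left out. Against the LHX2 cells they numbered 1 and 5 with DESeq2, 5 and 12 after thinning, 0 and 0 with no library term (edgeR, 187 genes at an unadjusted p under 0.05) and 0 to 2 and 0 to 4 with each library left out, and 48 genes were lower with no filter. NEFL against HOXD13 cells turned to -0.65 without doublets and -0.85 without its top cell. Against PRRX1 cells, APOA2 ranged from -2.74 to 0.027 with each library left out, turning without the 15-day one. CYP26B1 ranged from -0.071 to 1.29, ELN from -0.93 to 1.69, KRT15 from -3.67 to 0.83 and MCM3 from -0.59 to 1.28, each turning without the 45-day library. ATP1B1 against LHX2 cells turned to -0.027 without the top NEFL cell. The settings without a top cell and all LHX2-cell settings were chosen after seeing the data. Of the 20 genes named by rule against HOXD13 cells, 17 kept their call with DESeq2 and 12 with no library term; of the 20 against PRRX1 cells, 19 and 17 did. Kinds of cell were paired within a library through the library term, whose removal is given above. No paired analysis was possible because, for the comparisons between induction groups, each group was 1 library.

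Depth limits the uninduced and 15-day groups, where 3 UMIs stand for 24.9 and 19.1 CPM and 18 and 14 cells carry every value.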
